A study of Mus musculus with 153 samples.

Results

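Antimicrobial and alarm genes code for secreted or released proteins with which the epidermis meets microbes and injury. Measured here were 9 of them, chosen by name: the calprotectin subunits S100a8 and S100a9, the β-defensins Defb3 and Defb4, the siderophore-binding lipocalin Lcn2, the protease inhibitors Slpi, Stfa1 and Stfa3, and Camp, the precursor of the cathelicidin peptide. Each gene was read from the probe set with the highest mean among those annotated with its symbol alone, and each had 1 such probe set. All 9 were present among 18810 genes measured in the tail skin of 153 mice, 1 array per mouse.

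The mice came from a cross between male Mus spretus and female FVB/N mice without a working copy of Hras, whose hybrid daughters were mated to FVB/N males with 1 or no working copy. Each mouse was labelled HET (1 working copy of the Ras gene Hras) or WT (Hras +/+), and mice of both genotypes were untreated, 8 weeks old and of mixed Mus spretus and FVB/N descent. The arrays of 2 WT males of plate 2 were labelled outlier and left out, which gave 151 mice: 37 HET (19 males, 18 females) and 114 WT (62 males, 52 females), on plates 1, 2 and 3 of 49, 46 and 56 arrays. The labels number each mouse but give no litter, so p-values take the mice as independent.

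In skin, S100a8 and S100a9 pair into calprotectin, which withholds metal ions from microbes and acts as an alarm signal. Defensins and the cathelicidin peptide damage microbial membranes, Lcn2 binds the iron carriers that bacteria secrete, Slpi blocks serine proteases of leukocytes, and stefins block cysteine cathepsins. Several of these genes are low in resting epidermis and are induced in keratinocytes after wounding or by cytokines such as IL-17, IL-22 and IL-1, together with the stress keratins Krt6 and Krt16, and neutrophils carry S100a8, S100a9, Lcn2 and Camp as well. In whole skin, fewer cells of a type and less RNA per cell cannot be told apart.

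The 250 bases before the start site were taken from a RefSeq promoter table of assembly GRCm38.p6, which matched 8 of the 9 genes. They are shown for the 3 genes that moved together most closely (S100a8, S100a9 and Defb3), for Lcn2, for the stefin pair Stfa1 and Stfa3, and for Camp, which moved with none of the others. Each is written 5′ to 3′ on the strand of its gene. Capitals mark TATAAA in the window of S100a8 and TTGCNNAA (on either strand) in those of S100a9, Defb3, Lcn2 and Stfa1. The windows of Stfa3 and Camp held neither.
S100a8 (chr3:90668821-90669070, plus strand): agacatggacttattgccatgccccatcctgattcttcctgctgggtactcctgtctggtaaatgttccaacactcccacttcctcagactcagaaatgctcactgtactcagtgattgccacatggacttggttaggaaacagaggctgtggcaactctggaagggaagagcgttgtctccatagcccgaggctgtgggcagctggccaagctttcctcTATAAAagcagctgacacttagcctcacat
S100a9 (chr3:90695722-90695971, minus strand): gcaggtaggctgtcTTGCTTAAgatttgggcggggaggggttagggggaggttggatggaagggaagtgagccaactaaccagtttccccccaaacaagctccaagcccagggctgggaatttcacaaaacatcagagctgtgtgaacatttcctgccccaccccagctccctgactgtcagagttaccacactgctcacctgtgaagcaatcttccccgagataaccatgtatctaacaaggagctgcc
Defb3 (chr8:19293111-19293360, plus strand): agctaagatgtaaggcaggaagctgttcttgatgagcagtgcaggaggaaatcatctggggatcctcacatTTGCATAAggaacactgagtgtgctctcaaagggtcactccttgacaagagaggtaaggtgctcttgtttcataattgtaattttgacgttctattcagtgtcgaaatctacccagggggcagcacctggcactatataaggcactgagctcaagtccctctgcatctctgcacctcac
Lcn2 (chr2:32387740-32387989, minus strand): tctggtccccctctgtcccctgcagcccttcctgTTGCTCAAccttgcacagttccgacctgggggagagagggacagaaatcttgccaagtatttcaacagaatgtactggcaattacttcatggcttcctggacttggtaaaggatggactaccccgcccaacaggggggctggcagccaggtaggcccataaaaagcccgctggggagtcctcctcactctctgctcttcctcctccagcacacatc
Stfa1 (chr16:36276898-36277147, plus strand): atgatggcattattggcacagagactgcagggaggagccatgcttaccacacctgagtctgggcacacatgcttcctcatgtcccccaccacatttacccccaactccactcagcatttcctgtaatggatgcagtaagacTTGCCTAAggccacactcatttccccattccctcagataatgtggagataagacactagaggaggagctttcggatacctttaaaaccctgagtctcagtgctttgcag
Stfa3 (chr16:36455393-36455642, minus strand): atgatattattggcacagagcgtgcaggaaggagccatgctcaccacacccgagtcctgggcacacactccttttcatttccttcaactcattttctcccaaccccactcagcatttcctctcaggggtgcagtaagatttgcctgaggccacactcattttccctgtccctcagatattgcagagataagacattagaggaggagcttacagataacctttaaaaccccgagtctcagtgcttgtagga
Camp (chr9:109849457-109849706, minus strand): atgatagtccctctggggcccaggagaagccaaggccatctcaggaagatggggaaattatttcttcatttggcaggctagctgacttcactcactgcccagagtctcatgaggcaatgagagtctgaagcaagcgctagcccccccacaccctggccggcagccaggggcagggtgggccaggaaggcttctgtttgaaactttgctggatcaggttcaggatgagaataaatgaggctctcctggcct

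Of 6 motifs searched on both strands, TTGCNNAA, of the kind that C/EBP factors bind, was present in 5 of the 8 windows (S100a9, Defb3, Lcn2, Slpi and Stfa1) and in 9.56% of 32851 RefSeq windows of the same length. Its distance before the start site was 236 bases in S100a9, 179 in Defb3, 216 in Lcn2, 241 in Slpi and 109 in Stfa1. The E-box CAGGTG was present in 4 of 8 windows (S100a9, Defb3, Slpi and Stfa1) against 17.2% of all windows. TATAAA was present in S100a8 alone of the 8, 30 bases before the start, against 12.4% of all windows. GGNNTTTCC, TGANTCA and TTCNNNGAA, of the kinds that NF-κB, AP-1 and STAT factors bind, were in none of the 8 windows and in 4.93%, 6.75% and 7.02% of all. The windows of Stfa1 and Stfa3 were alike, with 211 identical bases in an alignment of 254 columns (83.1%), whereas the other 27 pairs of windows had a median identity of 46.1% and at most 50.7%. A match of letters is a description of the window and does not show that a factor binds there.

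The levels below are RMA values on the log2 scale, on which 1 unit is a doubling; levels of different genes come from different probes and were not set against each other. The median of an array lay between 4.67 and 4.89, its lower quartile between 3.02 and 3.20 and its upper quartile between 6.61 and 6.90. The label of the tissue was checked with 10 measured markers of epidermal keratinocytes, whose mean was 10.6 ± 0.11 in males and 10.6 ± 0.12 in females (SD, n = 81 and 70). The genotype labels were taken as given, since the level of Hras itself is not reported.

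S100a8, S100a9 and Defb3 were among the most variable genes of the skin. S100a8 had a lowest level of 2.64, a median of 4.46 and a highest level of 10.9 over the 151 mice, and its SD of 1.80 ranked 9 among 18810 genes. Defb3 had 3.52, 5.14 and 11.1 as lowest, median and highest levels, with an SD of 1.71 that ranked 12. S100a9 had 3.62, 5.24 and 10.5, with an SD of 1.39 that ranked 19. Most mice lay close to the low end and a minority reached far above it. More than 2 log2 units (4-fold) above the median lay 35 mice for S100a8, 34 for Defb3 and 19 for S100a9, and no mouse lay as far below.

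The other genes varied less. The stefin Stfa3 ran from 4.16 through a median of 6.62 to 9.37, with an SD of 1.05 (rank 58), and was close to symmetric, with 6 mice more than 2 units above and 3 more than 2 units below the median. Lcn2 ran from 4.76 through 6.08 to 9.82, with an SD of 0.82 (rank 125), and 5 mice, all male, lay more than 2 units above its median. Defb4 ran from 2.70 through 4.63 to 5.97 (SD 0.76, rank 171), and its longer tail was on the low side, with a skewness of -0.34 against 1.05 to 1.25 for S100a8, Defb3, Lcn2 and S100a9. Stfa1 ran from 4.36 through 6.03 to 7.84 (SD 0.68, rank 235) and Slpi from 3.87 through 5.16 to 7.33 (SD 0.58, rank 391). Camp, the cathelicidin precursor, stayed near the arrays' lower quartile at 2.70, 3.25 and 4.20 (SD 0.33, rank 2486).

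The same few mice topped several genes. A WT male of plate 1 had the highest S100a8, Defb3 and Stfa1 of all 151 mice (10.9, 11.1 and 7.84) and ranked 2 for S100a9 and Stfa3 and 3 for Lcn2 and Slpi. A WT male of plate 3 had the highest S100a9, Lcn2 and Slpi (10.5, 9.82 and 7.33) and ranked 2 for S100a8 and Stfa1. A WT male of plate 2 had the highest Defb4 (5.97) and ranked 2 for Defb3, Lcn2 and Slpi and 3 for S100a8, S100a9 and Stfa3. In these 3 mice Camp ranked between 119 and 144 of 151. Another WT male of plate 2, with the highest Stfa3 (9.37) and rank 4 for S100a8 and S100a9, ranked 3 for Camp (4.16).

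**Figure D1:**
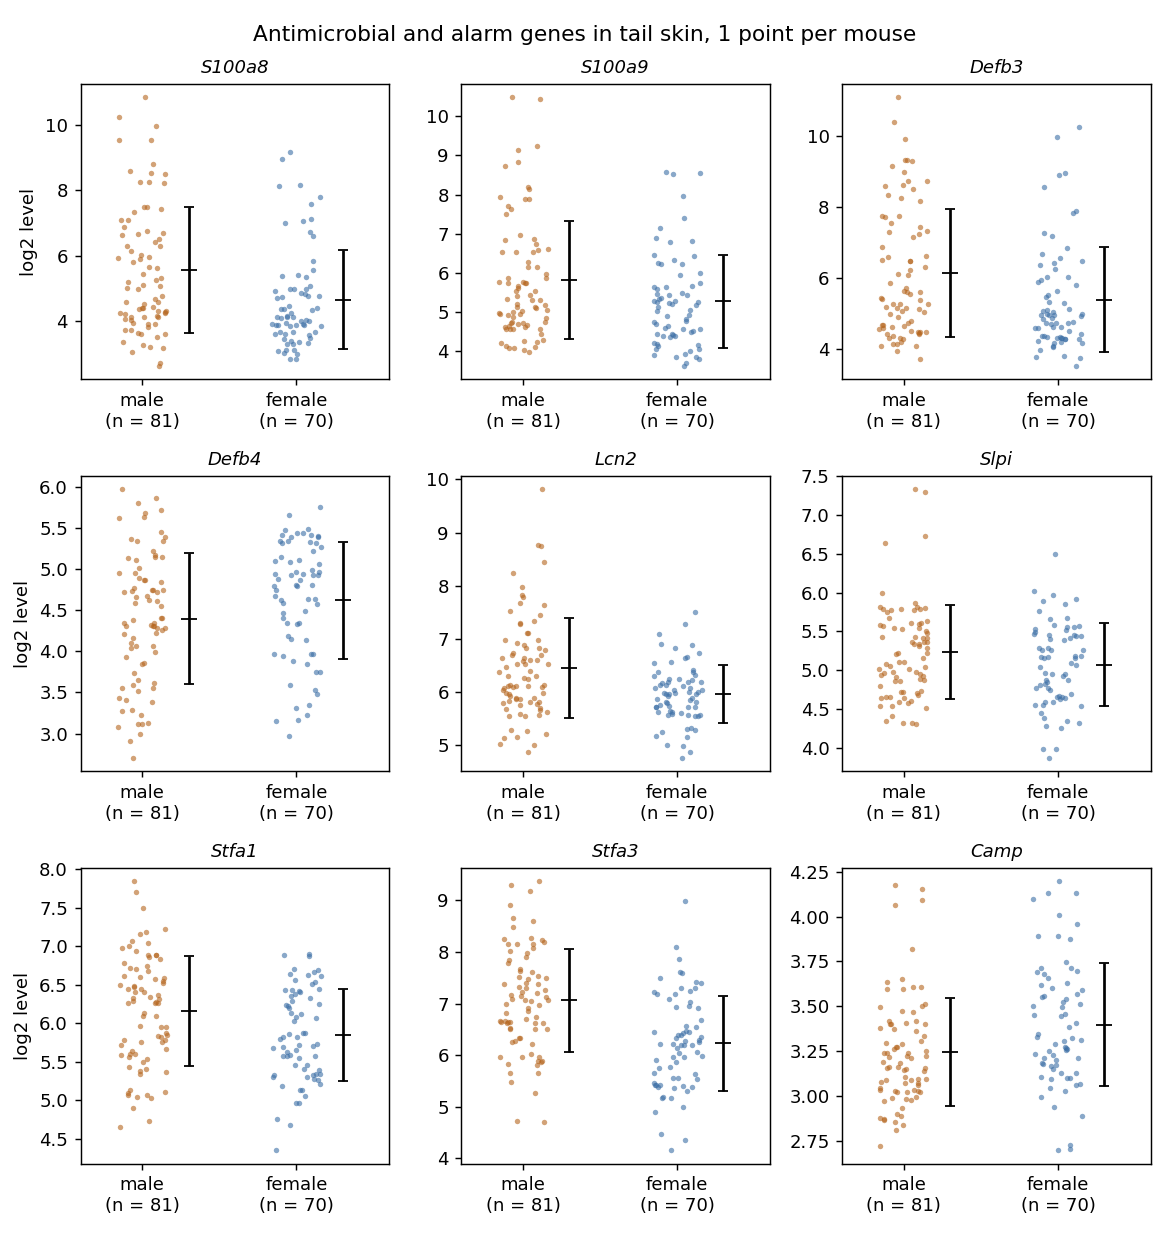
Level of each gene (log2, y axis, a separate scale for each gene) in 81 males (left) and 70 females (right), 1 point per mouse, with the mean and SD beside the points. S100a8, S100a9 and Defb3 have long upper tails in both sexes, Camp stays between 2.70 and 4.20, and males and females overlap for every gene.

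Whether the genes differed between males and females was asked with a limma fit of genotype, sex and plate over all 18810 genes, in which a gene was called at a Benjamini-Hochberg adjusted p under 0.05. S100a8, Lcn2 and Stfa3 were called, all higher in males. That was 3 of 9 genes higher and 0 lower, where over all genes 1.1% passed upward and 2.51% downward in males. That split of all genes, 207 higher and 473 lower, turned with the scaling: it was 348 and 271 with each array centred on its median and 329 and 302 after quantile normalization, under both of which the same 3 of the 9 genes were called higher. The median male minus female difference was 0.49 over the 9 genes, 7 of them positive, and -0.01 over all genes. The 9 genes were chosen with earlier results of these data known, and all but Camp were correlated with each other (below). Their calls and signs are therefore not independent of that choice or of each other.

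Stfa3, a stefin of the mouse chromosome 16 cluster, had a lowest, median and highest level of 4.71, 7.07 and 9.37 in males, against 4.16, 6.21 and 8.98 in females. The lower quartile of the males (6.51) lay above the female median, and the ranges overlapped. Males were 0.86 ± 0.16 log2 units higher (SE, 1.82-fold, limma adjusted p = 4.1e-05), and sex took 16.7% of the variance between mice. Within plates 1, 2 and 3 the difference was 1.12 ± 0.26, 0.87 ± 0.26 and 0.65 ± 0.25 (SE).

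Lcn2, the lipocalin, had levels of 4.87, 6.27 and 9.82 in males, against 4.76, 5.96 and 7.51 in females. No female went beyond 7.51, and below that level the sexes overlapped. Males were 0.49 ± 0.13 higher (SE, 1.41-fold, limma adjusted p = 0.011), with within-plate values of 0.35 ± 0.21, 0.32 ± 0.22 and 0.73 ± 0.21 (SE) on plates 1, 2 and 3.

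S100a8 had levels of 2.64, 5.09 and 10.9 in males, against 2.84, 4.13 and 9.16 in females. Of the 35 mice more than 2 units above the median, 24 were among the 81 males and 11 among the 70 females. Males were 0.94 ± 0.29 higher (SE, 1.92-fold, limma adjusted p = 0.039), with 0.80 ± 0.46, 1.40 ± 0.46 and 0.65 ± 0.49 (SE) within plates 1, 2 and 3. This call was the least firm of the 3: with the mean levels of fibroblast, muscle and adipocyte markers as covariates the difference was 0.69 ± 0.29 (SE, limma adjusted p = 0.21). Shuffling the sex labels within plate and genotype gave unadjusted permutation p-values of 1e-05 for Stfa3, the smallest that 100000 draws can give, 0.00021 for Lcn2 and 0.0015 for S100a8 (two-sided). In WT mice alone Stfa3 was called, and Lcn2 (0.45 ± 0.15, limma adjusted p = 0.095) and S100a8 (0.94 ± 0.33, limma adjusted p = 0.11) were not (SE). Within single plates the only call among the 9 genes was Stfa3 on plate 1 (limma adjusted p = 0.035), and in the 37 HET mice there was none.

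The other genes were not called between the sexes. Defb3 averaged 6.14 ± 1.82 in males and 5.38 ± 1.49 in females (SD, n = 81 and 70), a difference of 0.79 ± 0.27 (SE, limma adjusted p = 0.082). S100a9, the partner of S100a8, averaged 5.81 ± 1.51 in males and 5.27 ± 1.18 in females (SD), a difference of 0.56 ± 0.22 (SE, limma adjusted p = 0.16). Stfa1 averaged 6.16 ± 0.71 in males and 5.85 ± 0.59 in females (SD), a difference of 0.32 ± 0.11 (SE, limma adjusted p = 0.070), and Slpi averaged 5.24 ± 0.60 in males and 5.07 ± 0.53 in females (SD; limma adjusted p = 0.38).

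Both genes with a negative estimate were also uncalled. Camp averaged 3.24 ± 0.30 in males and 3.40 ± 0.35 in females (SD), a difference of -0.15 ± 0.05 (SE, limma adjusted p = 0.084). Defb4 averaged 4.39 ± 0.80 in males and 4.62 ± 0.71 in females (SD), a difference of -0.24 ± 0.12 (SE, limma adjusted p = 0.31).

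**Figure D2:**
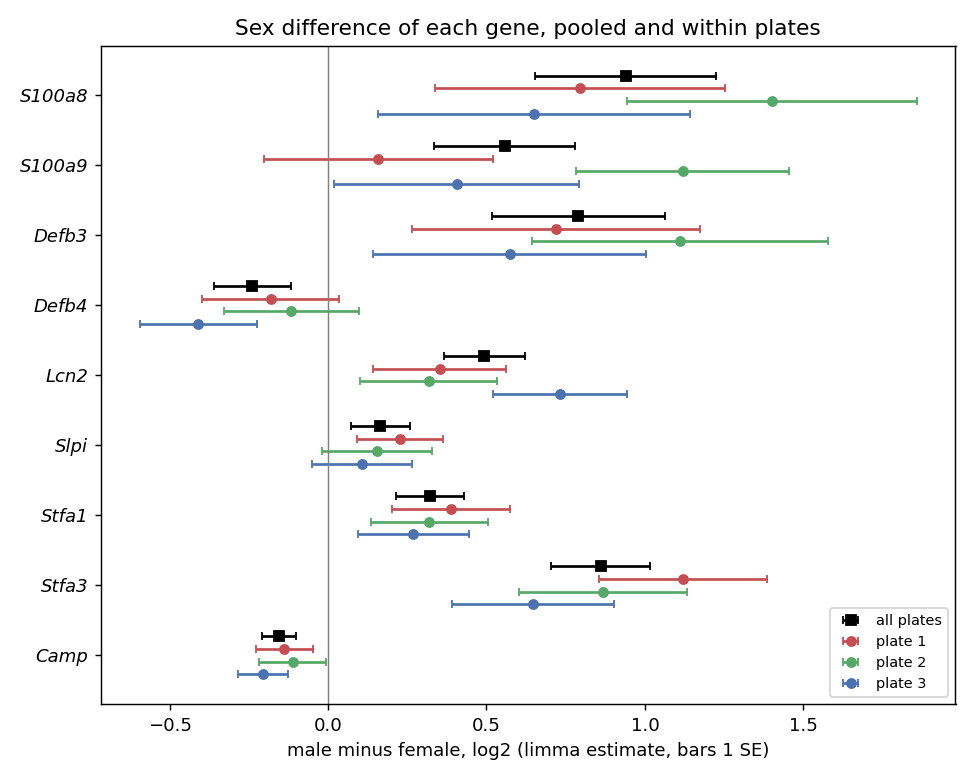
Male minus female difference of each gene (log2, x axis) from limma over all plates (black squares) and within plate 1, 2 and 3 (coloured circles), with bars of 1 SE. The estimates of Stfa3, Lcn2 and S100a8 are above 0 on every plate, and those of Defb4 and Camp are below 0 on every plate.

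Cell type markers gave the setting of these sex differences. The mean of 20 measured neutrophil markers was 3.73 in males (range 3.42 to 5.14) and 3.72 in females (range 3.48 to 4.71), and 8 of the 20, among them the granule genes Elane and Ltf, averaged below the lower quartile of every array. Elane and Ltf are also in the list of other antimicrobial genes used below. With that mean as a covariate the male minus female difference was 0.90 ± 0.25 for S100a8, 0.47 ± 0.11 for Lcn2 and 0.86 ± 0.15 for Stfa3 (SE), and all 3 were called. Of 20 neutrophil markers, 1 was called between the sexes, the decoy receptor Il1r2 (-0.38 ± 0.06, SE, lower in males), and of 11 macrophage and 8 muscle markers none was called. Of 10 keratinocyte markers 2 were called, Krt14 (0.07 ± 0.02) and Krt1 (0.11 ± 0.03), both higher in males (SE). Of 8 fibroblast markers 4 were called, with the collagens Col1a1 (0.24 ± 0.06), Col1a2 (0.20 ± 0.06) and Col3a1 (0.26 ± 0.05) higher and Lum (-0.28 ± 0.09) lower in males (SE). Of 7 adipocyte markers 2 were called, both lower in males, and the list averaged 5.24 in males (4.51 to 5.97) and 5.42 in females (4.77 to 6.29). The 8 fibroblast markers averaged 9.01 in males (8.08 to 9.60) and 9.01 in females (8.30 to 9.97), and the muscle markers 5.20 in males (3.88 to 7.61) and 5.36 in females (4.16 to 7.72). The part of fibroblasts, muscle and fat in the sex differences was not tested beyond the covariate fit.

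Genes that act around the antimicrobial genes were set beside them. Among 28 measured cytokines, receptors and factors that induce them, Nfkbiz, an NF-κB cofactor of the IL-17 response, was called higher in males (0.28 ± 0.05, SE, limma adjusted p = 5.1e-05) and the receptor Il1r1 lower (-0.12 ± 0.03, SE, limma adjusted p = 0.0043). Among 21 stress keratins and small proline-rich genes, Sprr2d, a precursor of the cornified envelope, was called higher in males (0.44 ± 0.09, SE) and none lower. Krt16 itself differed by 0.26 ± 0.19 (SE, limma adjusted p = 0.55). Among 12 other stefins and serpins, Serpinb2 was called higher in males (0.14 ± 0.04, SE), and among 22 other antimicrobial genes and 12 receptors of the secreted products none was called. The median male minus female difference was 0.01 over the inducers, 0.05 over the stress keratin list and 0.11 over the other stefins and serpins. It was -0.004 over the other antimicrobial genes, with 10 of 22 positive, and -0.02 over the receptors, against -0.006 over all genes. With the mean of the stress keratin list as a covariate, S100a8 was 0.60 ± 0.14, Lcn2 0.38 ± 0.10 and Stfa3 0.73 ± 0.13 higher in males (SE), and all 3 were called.

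HET and WT mice showed no difference that passed the test in the 9 genes. By the cross, the only working Hras copy of the hybrid mothers came from Mus spretus. If the cross was as described, every WT mouse would carry that copy, and a HET mouse need not. Fathers with 1 or no working copy would give more HET than WT offspring, whereas 37 HET and 114 WT mice were analysed. The reason for this was not looked into, and which copy each mouse carries was not measured here. The number of working copies and the descent of the region around Hras cannot be told apart in this comparison. HET minus WT calls were made for 0 of the 9 genes, against 0.112% of all genes (21 of 18810), and for none of the members of the lists above. The sizes that remain possible were widest for the variable genes. S100a8 had levels of 2.84, 4.59 and 9.16 in HET skin, against 2.64, 4.42 and 10.9 in WT skin, with a difference of 0.07 and a 95% confidence interval of -0.58 to 0.73. Defb3 had levels of 3.73, 5.27 and 9.17 in HET skin, against 3.52, 5.12 and 11.1 in WT skin, with a difference of 0.17 (-0.46 to 0.79).

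The 2 genes with the smallest unadjusted p in the genotype comparison were Slpi and Defb4. Slpi had levels of 3.99, 5.04 and 5.81 in HET skin, against 3.87, 5.18 and 7.33 in WT skin, a difference of -0.22 ± 0.11 (SE, limma p = 0.041, adjusted p = 0.74). Defb4 had levels of 3.12, 4.32 and 5.75 in HET skin, against 2.70, 4.74 and 5.97 in WT skin, a difference of -0.29 ± 0.14 (SE, limma p = 0.045, adjusted p = 0.75). For Defb4 the groups overlapped over nearly their whole ranges, and for Slpi the highest WT mice lay above all HET mice. On plate 1 alone both estimates were above 0. The remaining genes had estimates between -0.12 and 0.17: Stfa1 -0.12 ± 0.12, S100a9 -0.05 ± 0.26, Lcn2 0.05 ± 0.15, Camp 0.06 ± 0.06 and Stfa3 0.17 ± 0.18 (SE).

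The genotype difference was not shown to depend on sex. A genotype by sex term was called for 0 of the 9 genes and for 0% of all genes (limma; 895 genes had an unadjusted p under 0.05). Its smallest p among the 9 was that of Defb4, which averaged 3.99 ± 0.66 in HET males and 4.52 ± 0.80 in WT males (SD, n = 19 and 62), and 4.58 ± 0.73 in HET females and 4.63 ± 0.71 in WT females (SD, n = 18 and 52). The interaction was -0.47 ± 0.28 (SE, limma adjusted p = 0.998).

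None of the genes differed between the plates past the test. The F test over plates called 0 of 9 genes, against 0.0213% of all genes (4 of 18810, limma). The smallest unadjusted p of the 9 was 0.31, for Stfa3, which averaged 6.56 ± 1.08, 6.76 ± 1.02 and 6.71 ± 1.05 on plates 1, 2 and 3 (SD). S100a8 averaged 5.09 ± 1.66, 5.10 ± 1.80 and 5.22 ± 1.95 (SD). Genotype, sex and plate together took between 4.11% (S100a9) and 17.8% (Stfa3) of the variance between mice, so most of the spread lay among mice of the same genotype, sex and plate.

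How far the genes moved together in those mice was measured on residuals after genotype, sex and plate (151 mice, 36 pairs, two-sided permutation tests with Benjamini-Hochberg adjustment over the 36 pairs). All 28 pairs that did not include Camp were positively correlated and past the threshold, with Pearson's r from 0.27 to 0.91 and a median of 0.48, and none of the 8 pairs with Camp was. The 28 pairs had a positive r on each of the 3 plates. The share of all pairs of measured genes that would pass the same test was not counted. Some of the 28 pairs were not close: by its correlation with Stfa3, Slpi ranked 651 of 18809 other genes. Against all other measured genes, the 9 genes had median correlations between -0.01 and 0.00.

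The tightest group was S100a8, S100a9 and Defb3. S100a8 and S100a9, the calprotectin partners and next to each other on chromosome 3 with no measured gene between them, had r = 0.91 and Spearman's rho = 0.83 (permutation p = 1e-05, adjusted p = 2e-05), and r = 0.89 without the 2 mice farthest from the median. Defb3 lies on chromosome 8, and its correlation with S100a8 was as large, with r = 0.91, rho = 0.89 and r = 0.90 without 2 mice (the same p-values). Within plates 1, 2 and 3 the r of S100a8 with Defb3 was 0.95, 0.92 and 0.88, and that of S100a8 with S100a9 was 0.84, 0.93 and 0.93. Of all 18809 other genes, Defb3 ranked 1 and S100a9 ranked 2 by their correlation with S100a8. S100a8 in turn ranked 1 for S100a9, for Defb3 and for Lcn2.

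Lcn2 followed this group, with r = 0.73 and rho = 0.69 for S100a8 and r = 0.72 and rho = 0.64 for S100a9 (each permutation p = 1e-05, adjusted p = 2e-05). The S100a8 to Lcn2 correlation was 0.81 in males and 0.54 in females. Over the 28 pairs without Camp the r was higher in males than in females for 27, with medians of 0.57 in males and 0.41 in females; the difference between the sexes was not tested. In HET and WT mice the medians were 0.51 and 0.50.

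The stefins formed a second pair. Stfa1 and Stfa3, on chromosome 16 with 1 measured gene between them, had r = 0.79 and rho = 0.82 (permutation p = 1e-05, adjusted p = 2e-05), and r = 0.81, 0.77 and 0.80 within plates 1, 2 and 3. That gene, Cstdc6, another stefin-like gene, was the nearest gene of both, with r = 0.86 for Stfa1 and 0.81 for Stfa3. A further probe set annotated with Cstdc6, Cstdc5 and Stfa1 together was not used, and probes of such near-identical genes may not separate them. With S100a8 the stefins had r = 0.66 (Stfa1) and 0.63 (Stfa3).

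Defb4 and Slpi were more loosely tied. Defb4 lies 4 measured genes from Defb3 on chromosome 8, yet their r was 0.41 (rho = 0.40, permutation p = 1e-05, adjusted p = 2e-05), lower than that of Defb3 with S100a8 on another chromosome; the difference between these correlations was not tested. The r of Defb4 with the 7 genes other than Camp ran from 0.30 to 0.41 and that of Slpi from 0.27 to 0.52, the highest being with Lcn2. Lcn2 and Slpi share chromosome 2 but lie 1167 measured genes apart.

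Camp stood outside. Its r with the other 8 genes ran from -0.03 to 0.07, its smallest unadjusted permutation p was 0.37, and within plates its r ran from -0.11 to 0.26. Camp was also the gene closest to the arrays' lower quartile, and the part of its low signal in the missing correlation was not tested.

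**Figure D3:**
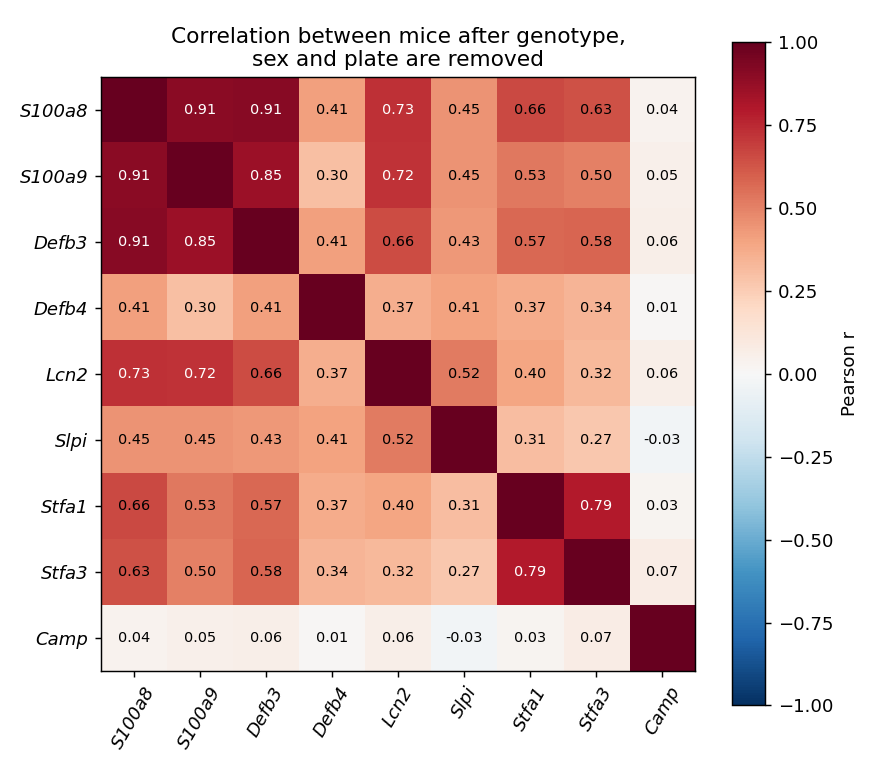
Pearson's r between each pair of the 9 genes over 151 mice (colour and number), after genotype, sex and plate were removed. S100a8, S100a9 and Defb3 form a block of 0.85 to 0.91, Stfa1 and Stfa3 a pair at 0.79, and the row of Camp stays between -0.03 and 0.07.

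**Figure D4:**
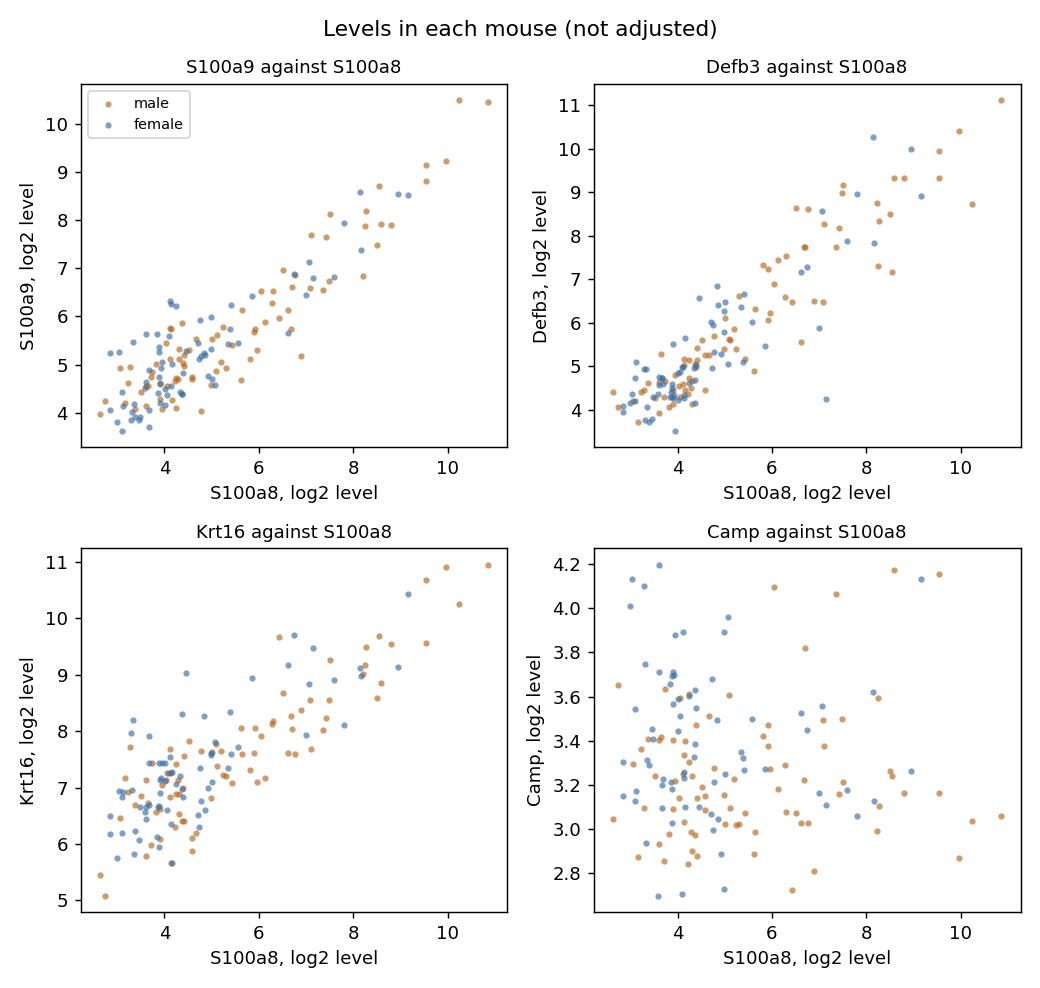
Unadjusted log2 levels of S100a9, Defb3, Krt16 and Camp (y axes) against S100a8 (x axes), 1 point per mouse, males and females in separate colours. S100a9, Defb3 and Krt16 are higher in mice with higher S100a8 (r of 0.91, 0.91 and 0.85 on residuals), and Camp is spread evenly (0.04).

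The genes outside the 9 with the most similar pattern were named by rank of Pearson's r on the same residuals over 151 mice, as a description with no test. For S100a8 they were the stress keratin Krt16 (0.85), the small proline-rich gene Sprr2e (0.81), Krt6b (0.79), the ribonuclease gene Rnase2b (0.75) and Sprr2d (0.74). For Defb3 they were Sprr2e (0.82), Sprr2d (0.80), Krt16 (0.79), Rnase2b (0.76) and Krt6b (0.74), and for S100a9 Krt16 (0.80), Sprr2e (0.78), Sprr2f (0.74), Sprr2d (0.72) and 2610528A11Rik (0.71). Krt16 and Krt6b lie on chromosomes 11 and 15, and the Sprr genes on chromosome 3. The mean of the 21 stress keratins and small proline-rich genes had r = 0.87 with S100a8, 0.84 with Defb3 and 0.78 with S100a9, and 13, 13 and 11 of the 21 were among the 100 nearest genes of each. Those 100 are 0.532% of all other genes.

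Lcn2 was nearest to Fetub (0.64), a fetuin, and then to Sprr2e (0.63), Sprr2f (0.63), Krt16 (0.63) and Rnase2b (0.61). Defb4 was nearest to Plet1 (0.58), the kallikrein Klk6 (0.56), Krt6a (0.51), Smpdl3a (0.49) and Atp1b1 (0.47), and Slpi to the receptor gene Il4ra (0.54), the mitotic kinase Aurka (0.52), the spermine oxidase Smox (0.50), Sprr2f (0.49) and Lce3a (0.48). For these genes the likeness fell off quickly: r passed 0.5 for 30 genes with Lcn2, 3 with Defb4 and 3 with Slpi, against 75 with S100a8. After Cstdc6, Stfa1 was nearest to Krt16 (0.67), the stefin-like Csta3 (0.67), Krt6b (0.66) and the retinol-binding Rbp2 (0.66). Stfa3 was nearest to the epidermal transglutaminase Tgm3 (0.67), Csta3 (0.62), Rbp2 (0.62) and Fam162a (0.60).

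Camp was nearest to Slc25a20 (0.51), a mitochondrial carnitine carrier, Ss18l2 (0.44), the sterol hydroxylase Cyp8b1 (0.42), Pfkfb4 (0.42), which sets fructose bisphosphate levels, and Hyal3 (0.41). All 5 lie on chromosome 9, as Camp does, between 72 measured genes on one side and 107 on the other. Among the 100 genes nearest to Camp, 38 lay on chromosome 9, which holds 5.85% of all genes measured. On chromosome 2, with 8.68% of all genes, the same count was 22 for Slpi and 12 for Lcn2. It was 16 for both S100a8 and S100a9 (chromosome 3, 4.71% of genes) and 12 for Stfa1 and 8 for Stfa3 (chromosome 16, 3.25%). For Defb4 and Defb3 it was 6 and 5, close to the 4.74% of genes on chromosome 8. Of the 100 genes nearest to S100a8, 13 lay within 50 measured genes of it, and 1 of those nearest to Defb3 lay as close to Defb3.

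**Figure D5:**
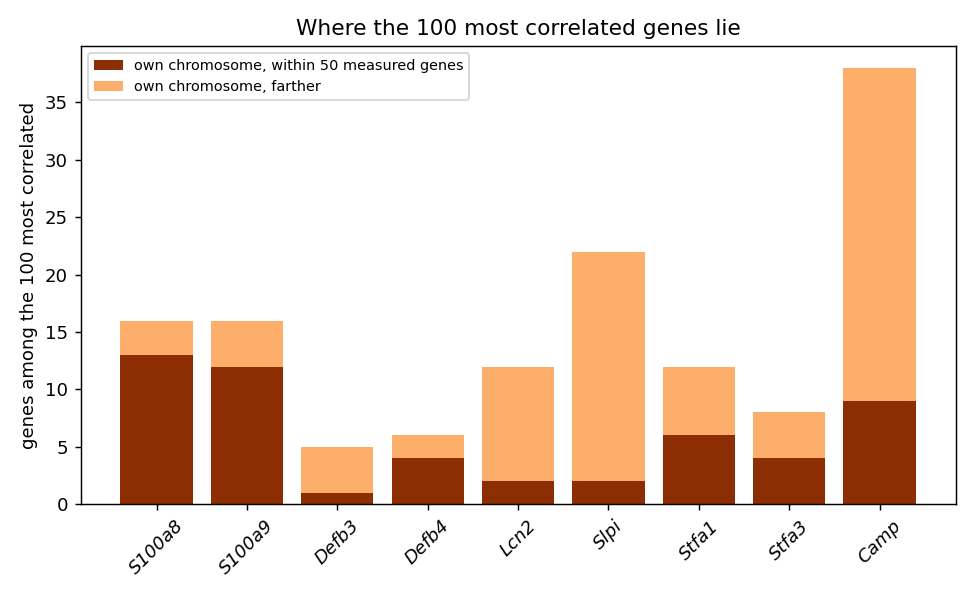
For each of the 9 genes, how many of its 100 most correlated genes (y axis) lie on its own chromosome, within 50 measured genes (dark) or farther (light). Camp has 38, Slpi 22 and Defb3 5, and for S100a8 and S100a9 most of the 16 are close by.

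The inducing cytokines and factors were correlated with the group to different degrees. S100a8 had r = 0.65 with Zc3h12a, the ribonuclease that restrains IL-17 signals, 0.60 with Il1b, 0.45 with Stat3 and 0.35 with Nfkbiz, and -0.04 with Il17a, whose mean level of 2.66 lay below the arrays' lower quartile. Of the 28 measured genes of that list, 11 passed r = 0.3 with S100a8, 7 with S100a9 and with Lcn2 and 6 with Defb3. It was 4 with Stfa1 and with Stfa3, 3 with Slpi, 2 with Defb4 and none with Camp. The share of all genes that pass 0.3 was not counted. The median r of the list ran from 0.005 (Camp) to 0.24 (S100a8), where the medians over all genes were 0.001 and -0.005. Among other antimicrobial genes, Wfdc12 had r = 0.58 with S100a8 and 0.59 with Defb3, the serum amyloid Saa3 0.54 with S100a9, and Defb14 0.56 with Defb3 and 0.44 with Defb4. Defb14 lies within 50 measured genes of both on chromosome 8, and its r was the highest among such neighbours of each. Defb1 had 0.06 with Defb3 and 0.39 with Defb4. The 12 receptors had r between -0.33 (Emb with Stfa3) and 0.20 (Cd36 with Lcn2), and their mean had r = -0.32 with Stfa3 and -0.26 with S100a8.

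Neutrophil markers moved with part of the group. Their mean had r = 0.55 with S100a9, 0.53 with Lcn2, 0.50 with S100a8, 0.42 with Slpi and 0.33 with Defb3, and 0.11 with Stfa3, 0.10 with Defb4 and -0.09 with Camp. The receptor Csf3r (0.52 with S100a8) and the chemokine Cxcl2 (0.55 with S100a9) were the highest, with mean levels of 3.41 and 2.88, close to or below the arrays' lower quartiles. Ngp, a neutrophil granule gene, had r = -0.02 with S100a8 and 0.38 with Camp. Of the 20 markers Ngp alone was among the 100 genes nearest to Camp, 38 of which lay on Camp's own chromosome. The part of chromosomal place in the r of Ngp with Camp was not tested. The part of neutrophils in the spread of these genes was not tested. For S100a8 and Defb3 the stress keratin mean had the larger r (0.87 and 0.84, against 0.50 and 0.33 for the neutrophil mean). The gap was narrower for S100a9 (0.78 against 0.55), Lcn2 (0.62 against 0.53) and Slpi (0.49 against 0.42). These differences were not tested. The 2 means do not compare on equal terms. Below the lower quartile of every array lay 8 of the 20 neutrophil markers and 4 of the 21 stress-list genes. Both lists were chosen with earlier results of these data known.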

How the data were processed

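RNA from frozen tail skin was extracted with Trizol, cleaned on a column and hybridised as biotinylated cRNA to Affymetrix arrays, per the labels' protocols. The deposited values are log2 levels per probe set, summarised by RMA per the submitters' processing notes. The sources used here give neither its version nor the array's build. The table had 35556 probe sets, of which 171 held no value; 21201 of the rest carried 1 gene symbol, which gave 18810 genes. Precision is limited by how many arrays there are.

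Groups came from the labels. Differences were fitted with limma 3.58.1 (R 4.3.3; lmFit, eBayes with trend) over all genes, with genotype, sex and plate in 1 model, and a second model with a genotype by sex term. Correlations, 100000-draw permutation tests and plots used Python 3.11.15 with numpy 2.4.6, pandas 2.3.3, scipy 1.17.1 and matplotlib 3.10.9, and promoter windows were aligned with biopython. Both procedures were tested on simulated normal values, drawn independently for each gene except a correlated pair in the correlation check. The skewed and mutually correlated levels of the 9 genes were not simulated. Promoters, chromosomes and gene order came from RefSeq tables of GRCm38.p6. Probe sequences were not compared with the Mus spretus genome. Named genes were the 9 members, the 5 genes nearest to each, and up to 3 called genes a list with the smallest p. Other list genes (Krt16, Zc3h12a, Il17a, Il1b, Stat3, Nfkbiz, Wfdc12, Saa3, Defb1, Defb14, Csf3r, Cxcl2, Ngp, Emb and Cd36 among the correlations) were picked after their values were seen. The members and gene lists were chosen with earlier results of these data known. Alternatives covered scaling, filters, covariates, subsets of mice and the arrays labelled outlier.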

Additional observations from a re-analysis of the deposited data

Results flagged for a closer look

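One of the 2 arrays labelled outlier, both of WT males on plate 2 and in none of the comparisons, had the highest Stfa1 (7.98) and Stfa3 (9.374) of all arrays, above the highest of the 151 mice (7.839 and 9.369). It would rank between 1 and 6 for all 9 genes, with 10.2 for S100a8, 10.4 for Defb3 and 9.62 for S100a9. The other such array lay between rank 24 (Stfa3) and rank 99 (S100a9).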

How the results depend on the processing

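The count of genes called between the sexes, 3 in 151 mice, was 1 in WT mice alone, 0 in HET mice alone, 1 on plate 1 alone, 0 on plate 2 alone and 0 on plate 3 alone, where fewer mice entered each fit; under the other 11 alternatives it stayed within 1.5 times. Over all genes, 680 were called between the sexes, against 502 in WT mice alone, 26 in HET mice and 52, 72 and 115 on plates 1, 2 and 3. With the 2 arrays labelled outlier kept in, Stfa1 was also called (0.34, limma adjusted p = 0.045). Signs turned for 14 uncalled estimates. HET minus WT became 0.215 (neutrophil covariate), 0.0115 (females), 0.109 (plate 1) and 0.477 (plate 3) for S100a9, -0.0597 (males) and -0.123 (plate 1) for Stfa3, -0.00291 (females) and -0.411 (plate 2) for Lcn2, 0.0102 for Defb4 and 0.041 for Slpi (plate 1), and -0.995 for S100a8, -0.968 for Defb3 and -0.0214 for Camp (plate 2). Male minus female became -0.0242 for Slpi in HET mice. The genotype, plate and interaction counts stayed at 0 under every alternative run, and the 28 correlated pairs stayed within 1.5 times under all 12 (24 on plate 3, 20 in females, 21 in HET mice). Leaving out genes with a mean under 4 gave no value for Camp. A second probe set per gene could not be tried, since each gene had 1. The permutation tests, the stress keratin covariate and the correlations within sexes and genotypes were chosen after seeing the data. No paired analysis was possible because the mice carry their own numbers, which groups do not share.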
